A study of Caenorhabditis elegans with 2 samples.

Results

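The genes described here are the 269 nuclear hormone receptor genes of Caenorhabditis elegans, taken as all protein-coding genes whose symbol begins with nhr- in the Ensembl annotation of the WBcel235 genome (ce11). They were 269 of 19973 protein-coding genes on the nuclear chromosomes, and the other 19704 genes served as the reference. The measurement was chromatin immunoprecipitation with sequencing (ChIP-seq), in which DNA is pulled down with a protein and places of enriched reads are listed as peaks, each with a summit. ZIP-5 is a transcription factor of the bZIP class, carried here with a C-terminal GFP-FLAG tag by the transgenic strain OP544, whose genotype is given as unc-119(tm4063) III and wgIs544. Both samples were whole hermaphrodite late embryos, taken 4 h after egg bleaching, which synchronizes a population. The 2 samples are biological replicates of 1 group, so no condition, genotype or stage was compared, and the transgene's promoter is not given in the sources used here. All embryonic cells are mixed in such a sample, so few cells with strong binding and many cells with weak binding cannot be told apart.

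Nuclear hormone receptors are transcription factors with a zinc-finger DNA-binding domain and a ligand-binding domain that, in many members, responds to a small lipophilic molecule. Nematodes carry an expanded family, most of it thought to descend from an HNF4-like ancestor, with many members lying in tandem groups on chromosome V. Members with known functions act in fat metabolism, moulting, cell fate and stress responses, and only a small number have clear counterparts in insects and vertebrates.

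A gene was counted when a summit lay from 1000 bp upstream to 200 bp downstream of its outermost annotated start. Many nematode genes are trans-spliced, so that start need not be where transcription begins. Of the nuclear peaks, 730 belonged to the optimal set, which the authors derived by comparing the replicates' peak ranks, 4362 to the list called on both replicates together, 6231 to that of replicate 1 and 6929 to that of replicate 2. The last 3 are relaxed lists that hold background regions as well as peaks. The authors' signal value ranks peaks within a list and has no stated scale. Values from a replicate list are thus not on 1 scale with those of any other list. At nhr-142 and nhr-255, the optimal set and the list of both replicates together held the same peak, with the same signal and rank. The lists carry no read counts, and sequencing depth is unknown. All intervals in parentheses are exact Clopper-Pearson 95% intervals that cover the counting of genes only, since neither genes nor peaks are replicates.

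Only nhr-142 and nhr-255 had a summit in the optimal set. The sequences at their summits and at 4 weaker ones are shown because they differ in what lies under the summit. Each runs 100 bases to either side of the summit, 201 bases in all, on the plus strand of the RefSeq WBcel235 genome. Capitals mark the 11 bases around the summit for nhr-142, nhr-47 and nhr-1, the whole tRNA gene for nhr-255, the word CTAGGCCA for nhr-228 and the repeated word TTAGGC for nhr-59.
nhr-142 (chrV:5790895-5791095): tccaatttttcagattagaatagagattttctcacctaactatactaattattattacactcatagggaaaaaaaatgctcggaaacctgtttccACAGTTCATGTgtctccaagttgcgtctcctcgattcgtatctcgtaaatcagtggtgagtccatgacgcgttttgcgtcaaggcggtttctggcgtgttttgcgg
nhr-255 (chrX:15742023-15742223): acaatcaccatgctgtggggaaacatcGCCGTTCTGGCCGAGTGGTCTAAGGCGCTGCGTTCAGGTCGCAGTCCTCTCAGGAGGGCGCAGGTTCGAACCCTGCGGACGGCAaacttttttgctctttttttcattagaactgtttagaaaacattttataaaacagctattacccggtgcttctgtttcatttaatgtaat
nhr-47 (chrV:5505209-5505409): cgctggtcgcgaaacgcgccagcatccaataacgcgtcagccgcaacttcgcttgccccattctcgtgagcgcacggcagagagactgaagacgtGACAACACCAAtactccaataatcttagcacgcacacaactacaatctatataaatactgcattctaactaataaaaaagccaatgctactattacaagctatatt
nhr-1 (chrX:17513532-17513732): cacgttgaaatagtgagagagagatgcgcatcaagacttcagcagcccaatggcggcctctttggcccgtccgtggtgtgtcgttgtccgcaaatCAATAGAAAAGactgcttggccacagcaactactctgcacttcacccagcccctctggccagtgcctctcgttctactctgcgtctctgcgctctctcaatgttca
nhr-228 (chrV:2281616-2281816): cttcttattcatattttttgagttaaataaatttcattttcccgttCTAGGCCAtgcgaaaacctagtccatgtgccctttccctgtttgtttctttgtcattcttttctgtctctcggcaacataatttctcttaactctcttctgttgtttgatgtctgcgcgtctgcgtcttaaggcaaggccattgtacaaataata
nhr-59 (chrV:2279003-2279203): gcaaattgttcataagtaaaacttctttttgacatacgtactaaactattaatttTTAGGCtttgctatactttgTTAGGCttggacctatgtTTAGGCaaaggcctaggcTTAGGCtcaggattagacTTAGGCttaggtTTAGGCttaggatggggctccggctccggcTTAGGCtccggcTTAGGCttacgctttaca

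The gene nhr-142 lies on the minus strand of chromosome V, from 5785957 to 5790553. Its summit had a signal of 260 and rank 133 in the optimal set, and lay at −442 bp from the annotated start, negative positions being upstream. In the single replicates the peak had a signal of 115 and rank 181 in replicate 1, and a signal of 147 and rank 102 in replicate 2, with summits 17 bp apart. It was thus strong in both. The same summit lay at −235 bp from the start of F44E7.9, a gene that starts from the other side of the shared intergenic stretch, and F44E7.9 is the nearer of the 2 starts in all 4 lists. From position alone, binding at either gene, or at both, cannot be told apart.

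The gene nhr-255 lies on the plus strand of chromosome X, from 15742610 to 15744298. Its summit had a signal of 214 and rank 218 in the optimal set, at −487 bp. The peak had a signal of 97.8 and rank 242 in replicate 1, and a signal of 118 and rank 186 in replicate 2, with summits 39 bp apart. No other protein-coding gene had this summit in its window. The summit lay inside a tRNA gene, WBGene00014626, which runs on the plus strand from 15742050 to 15742133 and fills 84 of the 201 bases shown. Of the 31-base words of this stretch, 64.3% occurred once in the genome, whereas every such word at nhr-142 did. Removing summits within 100 bp of a tRNA or snoRNA gene left nhr-142 as the 1 receptor gene in the optimal set.

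These 2 genes made up 0.743% of the receptor genes (0.0902 to 2.66), against 3.36% of the other genes (3.11 to 3.62) and a background of 3.32% over all protein-coding genes. In the list called on both replicates together, 16 receptor genes had a summit, or 5.95% (3.44 to 9.48), against 10.9% of other genes (10.5 to 11.4) and 10.8% of all genes. The replicate 1 list held 27 of them, 10% (6.72 to 14.3), against 12.6% of other genes (12.2 to 13.1), which is also the share of all genes, 12.6%. The replicate 2 list held 26, or 9.67% (6.41 to 13.8), against 13.6% of other genes (13.1 to 14.1), again equal to the share of all genes, 13.6%. The share of receptor genes over that of other genes was therefore 0.221 in the optimal set, 0.545 in the list of both replicates together, 0.794 in replicate 1 and 0.71 in replicate 2. The intervals of the receptor and other genes were apart in the first 2 lists and overlapped in both replicate lists. In at least 1 of the 4 lists, 43 receptor genes had a summit, 16% (11.8 to 20.9), against 19.0% of other genes (18.5 to 19.6) and 19.0% of all genes. With other genes weighted to the receptors' positions, as described below, this direction did not hold throughout. Their share was 15.6% by chromosome and 14.6% by chromosome and distance to the next gene, but 18.4% by distance alone.

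**Figure D1:**
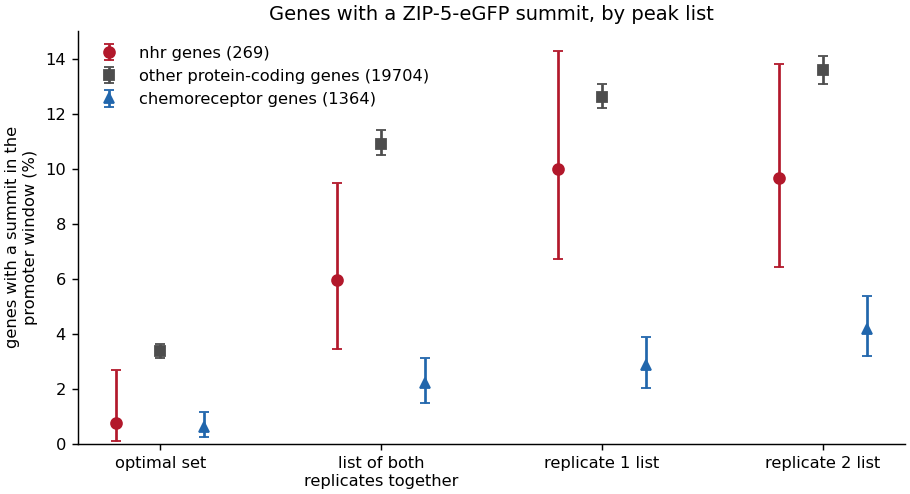
Share of genes with a ZIP-5-eGFP summit in the promoter window (y axis, percent) in each of the 4 peak lists (x axis), for nhr genes, the other protein-coding genes and the chemoreceptor genes, with exact 95% intervals. The nhr genes sit at 0.743% in the optimal set, below the 3.36% of other genes, and at 10% and 9.67% in the replicate lists, where the intervals overlap those of other genes.

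Taken as a ratio of shares, the gap was wide through the strongest 1000 peaks and narrowed further down each list. Among the strongest 500 nuclear peaks of each list, nhr-142 and nhr-255 were the 2 receptor genes reached. In the list of both replicates together these were the optimal peaks themselves, at the same ranks, and so no repeat of that result. The share of receptor genes was thus 0.743%, against 2.48% of other genes for both replicates together, 2.47% in replicate 1 and 2.4% in replicate 2. The ratios there were 0.3, 0.301 and 0.31 in that order. Only nhr-47 was added between ranks 501 and 1000 in each of these lists. Down to rank 1000, the share of receptor genes over that of other genes was 0.256 for both replicates together, 0.27 in replicate 1 and 0.268 in replicate 2. By rank 4000 the same ratios stood at 0.539, 0.535 and 0.617 in that order of lists. Other genes were also weighted by chromosome and distance to the next gene, as described below. The ratios were then 0.363, 0.387 and 0.38 down to rank 1000, and 0.747, 0.733 and 0.875 down to rank 4000.

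The peaks between ranks 2001 and 4000 added 8 receptor genes in replicate 1, which is 2.97% of the family against 3.22% of other genes, and 9 in replicate 2, or 3.35% against 3.24%. Below rank 4000, replicate 1 added 13 receptor genes, 4.83% of the family against 2.91% of other genes, and replicate 2 added 10, or 3.72% against 3.96%. Without weights, the excess in the last stretch of the replicate 1 list had no equal in replicate 2. The ratio of these added shares was 0.939 there, against 1.66 in replicate 1. For both replicates together, the added share was 2.97% against 3.51% between ranks 2001 and 4000. Below, it was 0.372%, from 1 gene, against 0.563%. Without weights the receptors thus stayed lower there. In the replicate lists the unweighted ratio of added shares past rank 2000 was not below 0.924. With the same weights as above, the added shares of other genes for both together were 2.69% and 0.263%, below those of the receptors. In the replicate lists the weighted ratios of added shares past rank 2000 ran from 1.14 to 2.0. The entries past rank 2000 are the weakest of lists made to include background.

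**Figure D2:**
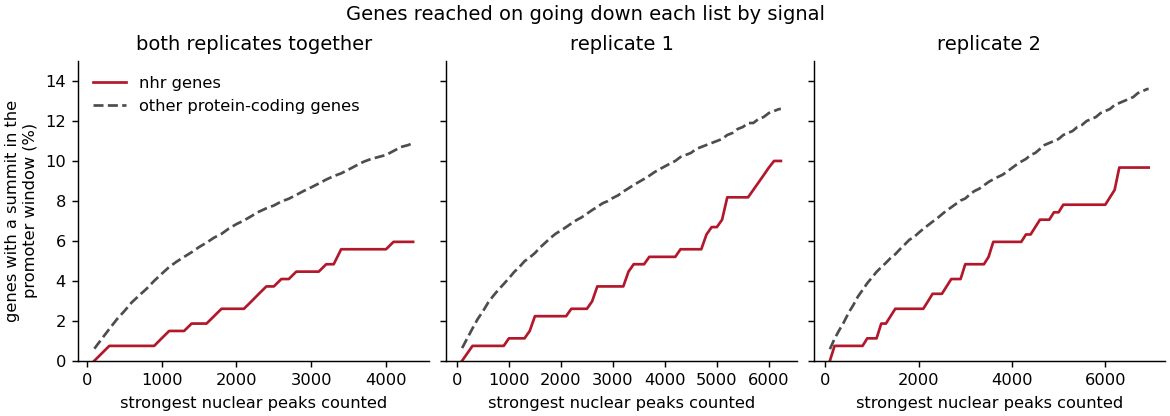
Share of genes with a summit in the promoter window (y axis, percent) as more of the strongest nuclear peaks are counted (x axis), for the list of both replicates together and each replicate list, with nhr genes as a solid line and other protein-coding genes as a dashed line. From the strongest 300 peaks on, the nhr line stays at 0.743% until nhr-47 is reached at rank 909, 985 and 894. It ends at 5.95%, 10% and 9.67%, against 10.9%, 12.6% and 13.6% for other genes.

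The peaks in receptor windows ranked lower than those in other windows, except for the optimal pair. The median rank of the strongest peak in a receptor window was 2217.5 in the list of both replicates together, against 1559.5 for the peaks in other windows. In replicate 1 it was 3488 against 2138, and in replicate 2 it was 3237.5 against 2507. The stronger 50% of the list held 8 of 16 receptor peaks for both together, against 62.8% of those of other genes, 38.5% against 62.5% in replicate 1, and 13 of 26 against 62.2% in replicate 2. The −log10 q value in the list of both replicates together was 2.29 for nhr-142 and nhr-255, 1.26 for nhr-47 and 0.886 for nhr-1, and ran from 0.0244 to 0.602 over the other 12 receptor genes there, where 0 stands for a q of 1.

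The share of receptor genes that recurred between the replicates was lower than that of other genes, with no test of the difference. A summit in both replicate lists was found for 10 receptor genes, 3.72% (1.8 to 6.73), against 7.41% of other genes (7.05 to 7.79) and 7.36% of all genes. Without weights, the intervals of the receptor and other genes were apart here. Weighted as described below, other genes stood at 5.94% by chromosome and 5.16% by chromosome and distance, both inside the receptors' interval. By distance alone they stood at 6.94%, just outside it. Of the 27 in replicate 1, 37.0% were in replicate 2 as well (19.4 to 57.6), against 58.7% for other genes (56.7 to 60.6). Of the 26 in replicate 2, 38.5% were in replicate 1 (20.2 to 59.4), against 54.5% (52.6 to 56.4). For these shares of each replicate's own genes the intervals overlapped. Within the stronger 50% of the replicate 1 list, 7 of 10 receptor genes recurred, or 70.0% (34.8 to 93.3), against 73.1% of other genes, while in the weaker 50% it was 3 of 17, or 17.6% (3.8 to 43.4), against 31.0%. In replicate 2 the stronger 50% gave 7 of 13, or 53.8% (25.1 to 80.8), against 70.0%, and the weaker 50% gave 3 of 13, or 23.1% (5.04 to 53.8), against 25.3%. Read within strength, the intervals of the receptor genes thus held the value of other genes in each of these 4 sets.

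The 10 receptor genes in both replicate lists were nhr-142, nhr-255, nhr-47, nhr-1, nhr-222, nhr-49, nhr-59, nhr-62, nhr-104 and nhr-48. For each of them the 2 replicate peaks overlapped, by 66 to 444 bp, with summits 5 to 384 bp apart. All but nhr-48 were also in the list of both replicates together, so 9 of the 16 receptor genes there were in both replicate lists, 56.2%, against 65.3% for other genes.

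After the optimal pair, the strongest of these was nhr-47 on chromosome V. It had a signal of 40.8 and rank 985 in replicate 1, a signal of 46.6 and rank 894 in replicate 2, and a signal of 83.4 and rank 909 for both together. The last of these summits lay 56 bp downstream of the start, in an exon of nhr-47, and at −452 bp from the start of dnj-19, which codes for a DnaJ-type chaperone. Next came nhr-1 on chromosome X, with a signal of 36.8 and rank 1307 in replicate 1, and a signal of 40.2 and rank 1304 in replicate 2. Its summit in the list of both together, at a signal of 75.6, lay at −431 bp in a stretch with 54.2% G and C. For these 2 genes the rank hardly moved between the replicates.

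The next genes were less even. For nhr-222, whose summit for both together lay 147 bp downstream of the start in an intron of the gene, the signal was 35.7 at rank 1412 in replicate 1 and 33.9 at rank 2287 in replicate 2. The gene nhr-49, an HNF4-like regulator of fatty acid desaturation and the fasting response, had a signal of 28.4 at rank 3287 in replicate 1 and of 42.5 at rank 1126 in replicate 2, with summits 384 bp apart. The gene nhr-62, needed for the long life of diet-restricted worms, had a signal of 31.8 at rank 2132 in replicate 1 and of 26.3 at rank 6162 in replicate 2, with summits 346 bp apart. These 2 metabolic receptors thus had their stronger peak in different replicates. The gene nhr-104 had its summit in an exon, 82 bp downstream of the start for both together, at a signal of 27.7 and rank 3625 in replicate 1, and of 26.4 and rank 6063 in replicate 2, only 5 bp apart. The gene nhr-48 was near the end of both lists, with a signal of 25.7 at rank 4824 in replicate 1 and of 26.2 at rank 6221 in replicate 2.

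The other receptor genes had a summit in 1 replicate list only, 17 in replicate 1, with signals from 24.2 to 35.7, and 16 in replicate 2, with signals from 26.2 to 42.1. Of the 17, nhr-228 alone was also in the list of both together, against 6 of the 16, namely nhr-3, nhr-41, nhr-86, nhr-125, nhr-173 and nhr-201. The highest of replicate 1 was nhr-54, with a signal of 35.7 at rank 1431, at −75 bp from its start, and no summit in the list of both together. The highest of replicate 2 was nhr-3, with a signal of 42.1 at rank 1154, at −887 bp, and rank 2352 for both together. The gene nhr-54 was named after its values were seen.

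The summit of nhr-59 lay at −838 bp, in an intron of the F-box gene fbxa-137, and ranked 2579 in replicate 1 and 2517 in replicate 2. The 201 bases there held TTAGGC 8 times, the unit of the nematode telomere repeat. At least 3 copies were found around 29 of the 4362 summits of the list of both together, 0.665%, and around 0 of the 730 optimal summits. Among promoter windows, 8 receptor windows had at least 3 copies, 2.97%, against 2.09% of other windows. This word was counted after the nhr-59 sequence had been seen.

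**Figure D3:**
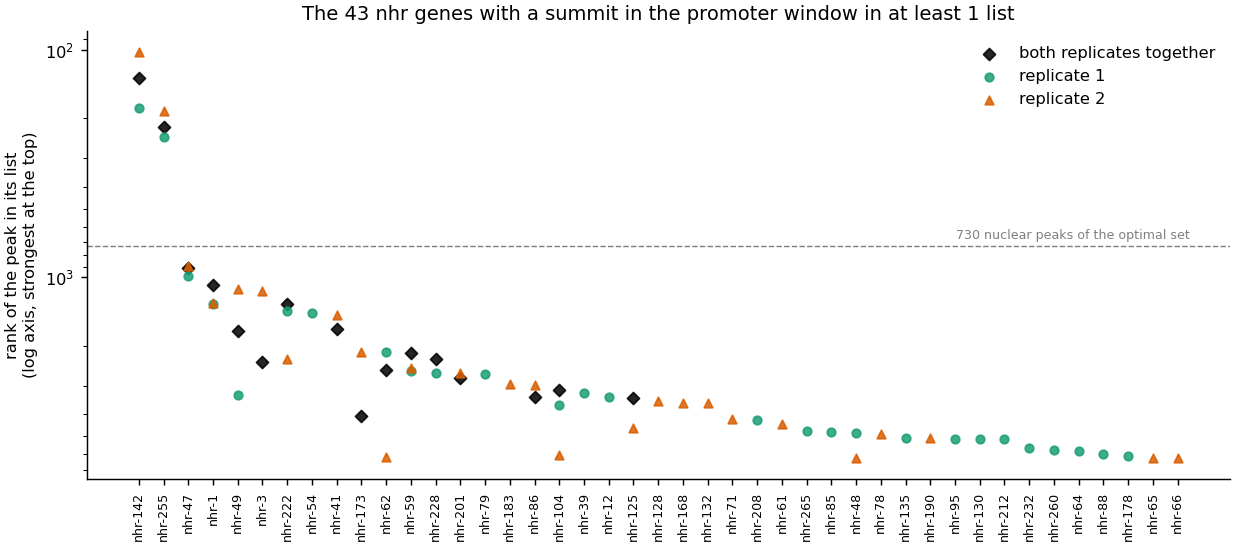
Rank of the peak in its list (y axis, log scale, strongest at the top) for the 43 nhr genes with a summit in the promoter window in at least 1 list (x axis, ordered by best rank), for the list of both replicates together and each replicate list. The dashed line marks rank 730, the number of nuclear peaks in the optimal set. Only nhr-142 and nhr-255 lie above it, and most genes to the right of nhr-59 have a point from a single replicate.

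The receptors were also read by function. Of 9 receptors conserved beyond nematodes (nhr-6, nhr-8, nhr-23, nhr-25, nhr-41, nhr-48, nhr-67, nhr-85 and nhr-91), 0 had an optimal summit, an interval that reaches 33.6%, and 3 had a summit in any list, or 33.3% (7.49 to 70.1) against the 19.0% of all genes. One was nhr-41, related to the vertebrate orphan receptors TR2 and TR4, with a signal of 38.7 at rank 1463 in replicate 2, a signal of 63.4 at rank 1692 for both together and no summit in replicate 1. Another was nhr-85, related to E75 and Rev-erb, with a signal of 25.8 at rank 4771 in replicate 1 alone, and the last was nhr-48, described above. The regulators of moulting and of cell fate in this list, nhr-23, nhr-25 and nhr-67, had no summit in their windows in any list.

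Of 13 HNF4-like, metabolic and stress receptors, 0 had an optimal summit, an interval that reaches 24.7%, and 3 had one in the list of both together, or 23.1% (5.04 to 53.8) against the 10.8% of all genes. These were nhr-49, nhr-62 and nhr-86, the last a sensor of a bacterial metabolite in innate immunity, with a signal of 31.7 at rank 2975 in replicate 2 and none in replicate 1. Lesser entries came from single replicates, nhr-64 at rank 5810 of replicate 1 and nhr-66, a partner of nhr-49 in lipid regulation, at rank 6257 of replicate 2. The 8 without a summit in any list included nhr-80, which controls oleic acid synthesis, and nhr-10 and nhr-68, which switch on the alternative route of propionate breakdown. Of the 4 receptors listed for embryonic and tissue development (nhr-1, nhr-2, nhr-40 and nhr-60), nhr-1 had a summit and the others had none. For both together and in any list it was thus 1 of 4 (0.631% to 80.6%). This interval held the 10.8% and 19.0% of all genes in these lists.

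Nuclear receptors outside the nhr- naming were too few to compare with other genes. The 5 listed were daf-12, the receptor for dafachronic acid in dauer formation, unc-55 and fax-1, which specify neurons, odr-7, which specifies an olfactory neuron, and sex-1, which acts in sex determination. None of the 5 had a summit in any of the 4 lists, an interval that reaches 52.2% and holds the 19.0% of all genes. Of 7 cofactors and hormone synthesis genes, cbp-1, the CBP/p300 coactivator, had an optimal summit with a signal of 103 at rank 658, and din-1, a corepressor that works with daf-12, was in the replicate 2 list only. No summit was found for mdt-15, the Mediator subunit that works with nhr-49, nor for gei-8, daf-9, daf-36 or dhs-16. Of the 7, 14.3% thus had an optimal summit (0.361 to 57.9), against 3.32% of all genes. In any list it was 28.6% (3.67 to 71.0), against 19.0%.

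Among 10 metabolic target genes of nhr-49, nhr-80, nhr-10 and nhr-68, hach-1, a hydrolase of the propionate shunt, had a signal of 347 at rank 68 in the optimal set, above both nhr-142 and nhr-255. In the single replicates hach-1 had rank 76 in replicate 1 and rank 66 in replicate 2. The aldehyde dehydrogenase gene alh-8 of the same route had a signal of 79.7 and the desaturase gene fat-6 one of 54.5 in the list of both together, each with a summit in both replicates. The enoyl-CoA hydratase gene ech-6 was in replicate 1 only, and the other 6, which include acdh-1, fat-5 and fat-7, had none. In the optimal set it was thus 1 of 10 (0.253% to 44.5%), against 3.32% of all genes. For both together it was 3 of 10 (6.67% to 65.2%), against 10.8%. In any list it was 4 of 10 (12.2% to 73.8%), against 19.0%. Each of these intervals held the share of all genes, so the entries set these targets apart in no list named here.

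The family's place in the genome differed from that of other genes. Of the receptor genes, 62.1% were on chromosome V, against 24.5% of other genes, and 59.5% lay in the outer 50% of their chromosome, against 44.5%. The next gene upstream was a median of 1590 bp away (quartiles 676 and 3604), against 929 bp (310 and 2713), and it pointed away from the receptor gene in 38.7% of cases, against 42.2%. The windows had a median G and C content of 33.9%, against 35.0%. Every 31-base word of the window was unique in the genome for 63.9% of receptor genes, against 61.2% of other genes, so repeated sequence was not more common in the receptor windows by this measure.

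On chromosome V, where most of the family lies, the shares were closer. There, 8 of 167 receptor genes had a summit in the list of both replicates together, 4.79% (2.09 to 9.22), against 6.75% of other genes on that chromosome (6.06 to 7.5). In replicate 1 the receptor genes of chromosome V stood at 10.2% (6.04 to 15.8) against 8.41%, and in replicate 2 at 7.78% (4.21 to 12.9) against 8.93%. In the optimal set it was 1 of 167, or 0.599% (0.0152 to 3.29), against 2.57% (2.14 to 3.06), and the receptors' interval held the whole of the other. On the X chromosome 4 of 23 receptor genes had a summit in the list of both together, 17.4% (4.95 to 38.8), against 8.38%, so the direction was not the same on every chromosome. These 4 were nhr-1, nhr-3, nhr-173 and nhr-255. Chromosomes II and III had no receptor gene with a summit in that list, out of 15 and 8.

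By distance to the next gene upstream, the share in the list of both together was lower in receptor genes in each of 5 bins. In percentage points the gap was widest from 250 bp to under 1000 bp, where 7.46% of 67 receptor genes had a summit (2.47 to 16.6), against 16.1% of other genes, and narrowest at 5000 bp or more, where it was 5.88% of 51 (1.23 to 16.2), against 7.11%. Other genes had their highest share in the first of these bins.

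**Figure D4:**
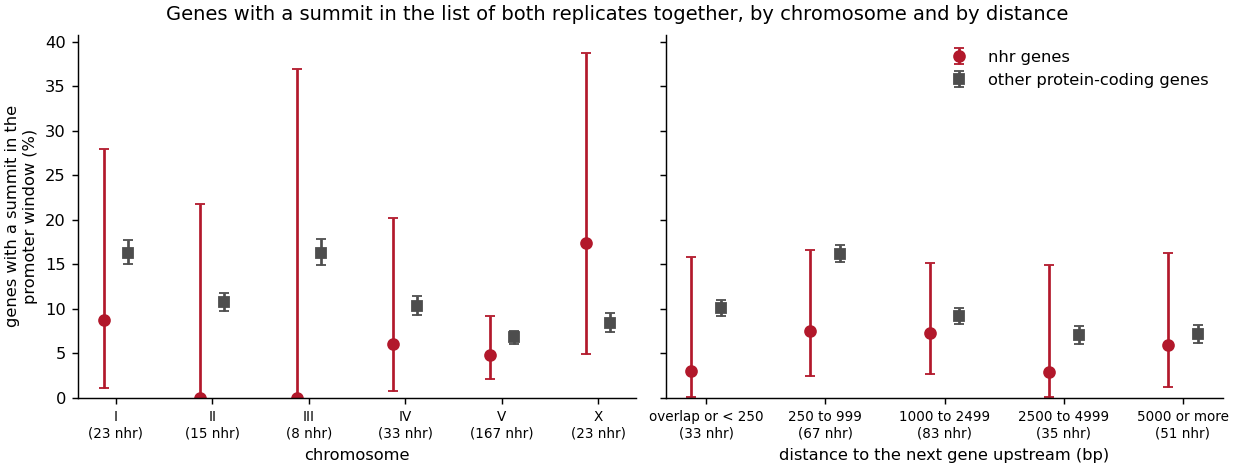
Share of genes with a summit in the list of both replicates together (y axis, percent, exact 95% intervals) by chromosome (left) and by distance to the next gene upstream (right), for nhr genes and other protein-coding genes, with the number of nhr genes under each bin. The nhr genes are lower in each distance bin and on each chromosome but X, where they stand at 17.4% against 8.38%, and their intervals are wide.

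To set the receptors against other genes of like position, the share of other genes was averaged over bins with the receptors' own numbers as weights. Weighted by chromosome, other genes stood at 2.87% in the optimal set, 8.65% for both replicates together, 10.3% in replicate 1 and 11.0% in replicate 2. Weighted by chromosome and distance at once, they stood at 2.41%, 7.73%, 9.52% and 10.1% in the same order of lists. The ratio of the receptors' share to this last one was 0.308 in the optimal set, 0.769 for both together, 1.05 in replicate 1 and 0.961 in replicate 2. The receptors' share was thus still the lower in the optimal set and for both together, but the weighted shares of 2.41% and 7.73% lie inside the receptors' own intervals of 0.0902 to 2.66 and 3.44 to 9.48, so the separation seen without weights was lost. Weighted by chromosome alone, 2.87% lay just outside the receptors' interval in the optimal set and 8.65% inside it for both together. In the replicate lists the shares were nearly level.

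**Figure D5:**
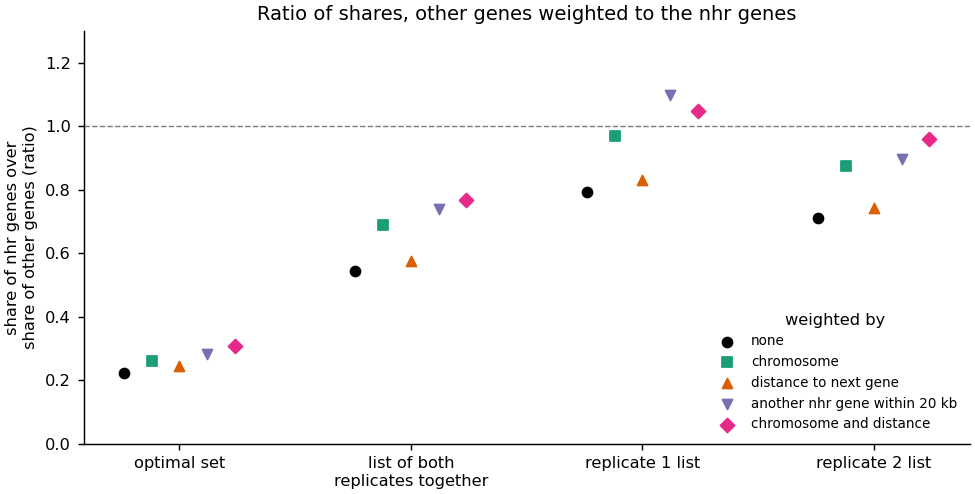
Share of nhr genes with a summit over the share of other protein-coding genes (y axis, ratio, dashed line at 1) in each peak list (x axis), without weights and with other genes weighted by chromosome, by distance to the next gene, by whether another nhr gene lies within 20 kb, and by chromosome and distance. The ratio runs from 0.221 to 0.308 in the optimal set and from 0.71 to 1.1 in the replicate lists.

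Tandem groups were counted as 3 or more receptor starts with at most 20 kb between neighbours. There were 25 such clusters with 130 genes, 17 of them on chromosome V with 102 genes, and 139 receptor genes lay outside. Of the clustered genes 0 of 130 had an optimal summit, an interval that reaches 2.8%, against 2 of 139 outside, 1.44% (0.175 to 5.1). In the list of both together it was 3.85% of clustered genes (1.26 to 8.75), against 7.91% of those outside (4.02 to 13.7). In any list it was 13 of 130 (5.43% to 16.5%), against 30 of 139, 21.6% (15.1 to 29.4). Clustered receptor genes had the lower share in every list, with intervals that overlapped throughout.

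In 16 of the 25 clusters no member had a summit in any list. The largest, 12 genes between 451451 and 494370 on chromosome V, had a summit at nhr-201 for both together and in replicate 2, and 1 shared by nhr-130 and nhr-212 in replicate 1. The cluster between 2259927 and 2294877 on chromosome V, with 9 genes, held both nhr-59 and nhr-228 as well as nhr-183 in replicate 2 alone, and no other cluster had more than 1 member in the list of both together. The 1202 other genes that start within 20 kb of a receptor gene had a summit in 2.16% of cases in the optimal set (1.42 to 3.15), 6.24% for both together (4.94 to 7.76), 6.91% in replicate 1 (5.54 to 8.49) and 8.99% in replicate 2 (7.43 to 10.7). These neighbours were thus below the 3.36%, 10.9%, 12.6% and 13.6% of all other genes in the same lists.

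Other expanded families of the nematode were lower still in the weak lists. Of 1364 chemoreceptor genes, 0.587% had a summit in the optimal set (0.254 to 1.15), 2.2% for both together (1.49 to 3.13), 2.86% in replicate 1 (2.04 to 3.89) and 4.18% in replicate 2 (3.18 to 5.38). The receptor genes' 0.743%, 5.95%, 10% and 9.67% lay above these in each list, with intervals apart in all but the optimal set. The F-box genes stood between, with 4.66% in replicate 1 (2.63 to 7.57) and 5.59% in replicate 2 (3.35 to 8.69). The 240 C-type lectin genes stood at 1.25% in the optimal set (0.259 to 3.61), above the receptor genes, but at 2.08% in replicate 1 (0.68 to 4.79) and 6.67% in replicate 2 (3.86 to 10.6).

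Optimal peaks were also farther from receptor genes. The nearest optimal summit was a median of 92141 bp from a receptor start, against 51883 bp for other genes, and on chromosome V 106272 bp against 63388 bp. Within 5 kb of the start, 7 receptor genes had an optimal summit, 2.6%, against 8.85% of other genes. Those outside the window were nhr-41, with a summit 2091 bp downstream of its start (signal 104), nhr-281, with one at −2257 bp (signal 178), nhr-102, 2433 bp downstream (signal 417), nhr-17, 2612 bp downstream (signal 251) and nhr-11, 4422 bp downstream (signal 264). The summits near nhr-41, nhr-281 and nhr-17 lay within 100 bp of a tRNA gene and that near nhr-102 within 100 bp of a snoRNA gene, while that near nhr-11 lay in the window of mppb-1, a mitochondrial processing peptidase gene.

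Inside the genes the densities were closer than in the windows, and lower in receptor genes in 3 of the 4 lists. Optimal summits more than 200 bp past the start lay in the bodies of receptor genes at 3.45 per Mb, from 3 summits, against 3.33 per Mb in other genes. For both together the density was 28.7 per Mb, from 25 summits, against 32.0 per Mb. In replicate 1 it was 41.4 against 49.8 per Mb, and in replicate 2 it was 52.8 against 57.7 per Mb. The 3 optimal ones were in introns of nhr-41 and nhr-17 and in an exon of nhr-119, which was named after its value was seen and had a signal of 162. With the window summits, 3 of the 5 optimal summits at receptor genes lay near a tRNA gene, against 75 of 623 at other genes. So few summits allow no more than a description.

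Of 3 sequence words that were counted, 2 were more common at optimal summits than beside them, and receptor windows held both about as often as other windows. The 8-base word CTAGGCCA, or TGGCCTAG on the other strand, was present within 100 bp of 85 of the 730 optimal summits, 11.6%, against 0.548% of flanking windows. This word was picked as the 8-base word with the largest excess at these same optimal summits over their flanks. Its excess there was thus set by the choice. It stood in 9 receptor windows, 3.35% (1.54 to 6.26), against 686 other windows, 3.48% (3.23 to 3.75). Of the windows that had it, an optimal summit was found in 0 of 9 receptor windows, against 21.0% of other windows. The 21.0% draws on the summits from which the word was picked. For both together it was 1 of 9, against 32.9%, in replicate 1 it was 2 of 9, against 34.7%, and in replicate 2 it was 0 of 9, against 34.4%. The one gene in the list of both together was nhr-228, with a signal of 57.6 at rank 2284, whose word lay 50 bp from the summit, as shown among the sequences above. In replicate 1 the other was nhr-85, whose word lay at −959 bp and whose summit lay at −269 bp, so the 2 did not coincide. The 7 with no summit were nhr-77, nhr-92, nhr-100, nhr-174, nhr-184, nhr-227 and nhr-275. No interval was computed for these shares of 9 windows. On either strand, the word GGGCGG was within 100 bp of 90 of the optimal summits, 12.3%, against 3.63% of flanking windows, and stood in 18.6% of receptor windows, against 19.2% of other windows. The word TGATAA, less common at summits than in flanks (10.1% against 18.6%), stood in 67.3% of receptor windows, against 72.0%. A word in a window is a description of the sequence and does not show a binding site.

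Where a summit did fall in a receptor window, it usually had that gene as its nearest start. In the list of both together this held for 15 of 16 receptor genes, 93.8%, against 76.7% of other genes, nhr-142 being the exception. The median position was −457 bp from the start, against −262 bp for other genes, and 37.5% of the receptor summits were within 250 bp of the start, against 48.2%. By these values the 16 receptor summits lay farther from the start, but no interval was computed and the difference was not tested.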

How the data were processed

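ZIP-5-eGFP ChIP-seq with an anti-GFP antibody was carried out on 2 biological replicates of whole late embryos. Per the deposited file listings, the authors called 1 list on each replicate alignment with a control and 1 on both alignments with a control, and derived the optimal set from these 3. Not given in the sources used here are the aligner, the caller with its settings and the threshold for reproducibility. The deposited lists give each peak a signal, a score of the authors' caller with no stated scale, used here for ranks within a list, and a −log10 q value. Reads, control libraries and the 4 ce10 lists were not used here, since no coordinate was converted between builds. Of other per-sample columns, 0 were present.

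Summits on the 6 nuclear chromosomes were joined to genes of Ensembl 115 with Python 3.11.15, numpy 2.4.6, pandas 2.3.3 and scipy 1.17.1, and the steps were checked on simulated data. All 269 symbols carried a gene ID. No test was run: the design has 1 group, and lists are described by counts beside all other genes. The members, the gene lists and the comparisons were chosen with earlier results of these data known. Named genes are those with an optimal summit in the window, the 10 strongest in the list of both replicates among those in both replicate lists (9 met this), the 5 nearest to an optimal summit outside the window, and the fixed lists. Genes named for a sequence, a cluster or a chromosome were chosen after their values were seen. Protein features were not analysed here.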

Additional observations from a re-analysis of the deposited data

How the results depend on the processing

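The share of nhr genes stayed below that of other genes in all 34 alternatives that changed the window, the assignment, the starts, the overlap, the strength of peaks, the RNA genes, the uniqueness of the window or the replicate, with ratios from 0.118 to 0.395 in the optimal set, 0.414 to 0.667 for both replicates together, 0.448 to 0.924 in replicate 1 and 0.544 to 0.852 in replicate 2. With all annotated starts nhr-41 joined the optimal genes, at 1.12%. Built from the strongest peaks of the other replicate, it was 0.743% without replicate 1 and 0.743% without replicate 2. Keeping the stronger 50% of a list gave 2.97% of nhr genes for both replicates together, 3.72% in replicate 1 and 4.83% in replicate 2, and a window of 500 bp upstream gave 5.95% in replicate 2. For the optimal set, both replicates together, replicate 1 and replicate 2 in that order, the share of other genes was 2.87%, 8.65%, 10.3% and 11.0% weighted by chromosome, 3.03%, 10.3%, 12.1% and 13.0% by distance to the next gene, 2.62%, 8.03%, 9.11% and 10.8% by another nhr gene within 20 kb, 2.41%, 7.73%, 9.52% and 10.1% by chromosome and distance, and 2.58%, 8.33%, 9.99% and 10.8% by chromosome and its central or outer part. These weightings are not among the 34 alternatives. In replicate 1 the ratio of the shares was 1.1 by another nhr gene within 20 kb and 1.05 by chromosome and distance. It was 1.0 there by chromosome and its central or outer part, and below 1 by chromosome or by distance alone. In the other lists it stayed below 1 under each weighting. The weighting by central or outer part and the restriction to unique windows were chosen after seeing the data. The cause of these shifts was not tested. With clusters linked at 10 kb or 50 kb, the clustered nhr genes with an optimal summit were 0 of 104 and 0 of 152. No paired analysis was possible because the 2 replicates form 1 group with no comparison between groups. The lists hold no counts, so what depth limits is unknown.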
